A study of Homo sapiens with 8 samples.

Results

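The 10 genes described here encode proteins by which a cell recognises foreign or misplaced RNA and DNA and passes that signal on. They are IFIH1, DDX58, DHX58, MAVS, TLR3, IFI16, EIF2AK2, ADAR, TBK1 and CGAS, taken by gene name from a table of 60282 genes, and each name matched 1 row. The set is not purely cytosolic and not purely one of sensors. TLR3 works in endosomes, MAVS is an adaptor on the outer mitochondrial membrane, TBK1 is a kinase and ADAR edits RNA.

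The genes were measured by RNA sequencing in SK-UT-1 cells, a human line established from a uterine leiomyosarcoma, a malignant tumor of uterine smooth muscle. Cells were grown in minimum essential medium with fetal bovine serum and received either DMSO, here called vehicle, or TP-472 at 5 µM for 48 h, with 4 libraries in each group. TP-472 is a small molecule that binds the bromodomains of BRD9 and BRD7, and BRD9 is a subunit of a BAF chromatin remodelling complex. The question of the comparison was how the transcriptome of these sarcoma cells differs with the inhibitor. A single cell line, dose and time were used, and with 1 compound the roles of BRD9 and BRD7 cannot be told apart.

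Double-stranded RNA in the cytosol is bound by RIG-I (encoded by DDX58) and MDA5 (IFIH1), which then engage MAVS. DNA in the cytosol is bound by cGAS, which makes a cyclic dinucleotide that activates STING. Both routes lead to TBK1, which phosphorylates the transcription factor IRF3 and so turns on interferon genes. PKR (EIF2AK2) instead stops translation when it binds double-stranded RNA, and ADAR converts adenosines in such RNA to inosines and thereby lowers its recognition. Many of these genes are themselves induced by interferon through ISGF3, a complex that binds the interferon-stimulated response element (ISRE), and the gamma-activated site (GAS) is another element of interferon-induced promoters.

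The promoter sequences that carry letters of these elements are shown first, since the expression values that follow concern the same genes. Promoters of RefSeq on GRCh38.p14, each of 300 bases from 250 before to 50 after the transcription start, were found for 8 of the 10 genes, with DDX58 entered under its current symbol RIGI. DHX58 and CGAS were not searched. An ISRE core, written GAAANNGAAA and sought on both strands, was found in 3 of the 8, those of IFIH1, TLR3 and EIF2AK2, and in 3.57% of 35116 promoters overall. A GAS core, written TTCNNNGAA, was found in the TLR3 promoter alone among the 8, and in 7.66% of all promoters. No ISRE match overlapped a GAS match in these windows. The sequences below read 5′ to 3′ on the strand of the gene, with the match in capitals, and positions count from 1 at the first transcribed base, with negative numbers before it.
IFIH1, 2 overlapping ISRE matches on the opposite strand at -159 to -144 (chr2:162318808-162318863, minus strand): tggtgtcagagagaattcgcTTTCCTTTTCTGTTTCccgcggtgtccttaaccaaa
IFIH1, ISRE match at -21 to -12 (chr2:162318676-162318725, minus strand): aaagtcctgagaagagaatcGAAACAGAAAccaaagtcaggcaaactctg
EIF2AK2, ISRE match at -6 to 4 (chr2:37156957-37157006, minus strand): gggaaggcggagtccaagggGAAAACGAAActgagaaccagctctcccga
TLR3, ISRE match on the opposite strand at -4 to 6 (chr4:186069132-186069181, plus strand): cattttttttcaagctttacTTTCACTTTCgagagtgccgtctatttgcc
TLR3, GAS match at -178 to -170 (chr4:186068958-186069006, plus strand): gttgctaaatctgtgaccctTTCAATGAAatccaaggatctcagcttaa
TLR3, GAS match at -50 to -42 (chr4:186069086-186069134, plus strand): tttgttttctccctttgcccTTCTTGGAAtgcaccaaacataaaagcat

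The promoters of DDX58, MAVS, IFI16, ADAR and TBK1 held neither set of letters in this window. Genes have further start sites outside it, and the window of IFI16, which begins at base 159008741 of chromosome 1, lies inside the gene as GENCODE draws it (from 158999968 to 159055155). A match describes letters and is not evidence of binding, and binding was not measured.

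Library totals ranged from 32574716 to 38545695 estimated counts, and each of the 10 genes had more than 100 counts in every library. Vehicle replicate 3 stood apart from its group. Its median Spearman correlation with the other vehicle libraries, across the genes tested, was 0.914, against 0.988, 0.988 and 0.989 for replicates 1, 2 and 4 and 0.993 to 0.997 for the TP-472 libraries. On the first principal component, which held 65.8% of the variance, it scored -94.0, against -36.4, -13.5 and -14.5 for the other vehicle libraries and 37.0 to 43.4 for TP-472. It was therefore farther from the TP-472 libraries than the rest of its group, and values without it are given where they change a result.

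The labelled cell type was compared with its markers. Of 10 smooth muscle genes, 8 passed the filter on low counts, with CALD1 the most abundant, whereas the myosin gene MYH11 and the regulator MYOCD did not exceed 10 and 8 counts in any library. The estrogen and progesterone receptor genes ESR1 and PGR reached at most 3 counts. Immune cells, which carry many of the sensors at high level, left little trace, since PTPRC reached at most 1 count and CD3E, MS4A1, TYROBP and AIF1 had 0 in all 8 libraries. The 8 immune markers summed to 6.68 to 7.95 CPM (a gene's counts per 1000000 counts of its library, after scaling by TMM factors) in vehicle and 9.09 to 12.3 CPM in TP-472, nearly all of it CD68, a lysosomal protein that is not restricted to immune cells. Summed endothelial markers lay between 0.0831 and 0.144 CPM in vehicle and between 0.414 and 0.687 CPM in TP-472, and 0 of these 5 genes passed the filter. The smooth muscle sum was 453 to 543 CPM in vehicle and 376 to 385 CPM in TP-472. By the rule given below, 4 of its genes (DES, TAGLN, LMOD1 and MYLK) were called lower with TP-472. DES and LMOD1 averaged 0.629 and 0.702 CPM in TP-472 and passed the filter through vehicle. ACTA2 went from 160 to 109 CPM, short of the fold limit, and SMTN, at 158 CPM in vehicle replicate 3, was not called. The means of CNN1 (1.26 and 1.38 CPM) and of the untested MYH11 and MYOCD were slightly higher with TP-472. Of 5 epithelial markers 3 were tested, with KRT18 higher and KRT19 lower. Of 4 fibroblast markers 2 were tested, with COL1A1 lower, and their sum was 22.6 CPM in vehicle replicate 3, 4.08 to 10.7 CPM in the other vehicle libraries and 2.58 to 3.68 CPM in TP-472. The part of these marker differences in the sensor results was not tested.

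All 10 genes passed the filter of more than 1 CPM in at least 4 libraries and were tested among the 14073 genes kept. A gene was called when its adjusted p (edgeR quasi-likelihood F test, Benjamini-Hochberg over all genes tested) was under 0.05 and its fold change over 1.5. With TP-472, 8 of the 10 genes were called lower, where 14.9% of all genes tested were, and 0 were called higher, where 12.0% were. Called in either direction were 26.9% of all genes, and 36.3% passed the adjusted p alone. The same 8 genes had TP-472 values that all lay below every vehicle value, against 21.6% of all genes. Groups that did not overlap in the other direction made up 23.8% of all genes and none of the 10. For 7 of the 10 the fall exceeded 2-fold, against 7.57% of all genes. That count rested on genes near the limit and was 6 without vehicle replicate 3 (4.33% of all genes), where MAVS was at -0.75, and 5 under limma-voom with quality weights (4.27%). The median log2 fold change of the 10 genes was -1.09, beside -0.03 over all genes tested. No gene of the 10 was higher at an unadjusted p of 0.05 in this fit, and DESeq2 and limma-voom also called 0 of them higher. CGAS passed the adjusted p, but not the 1.5-fold limit, in 2 other fits given with its values.

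**Figure D1:**
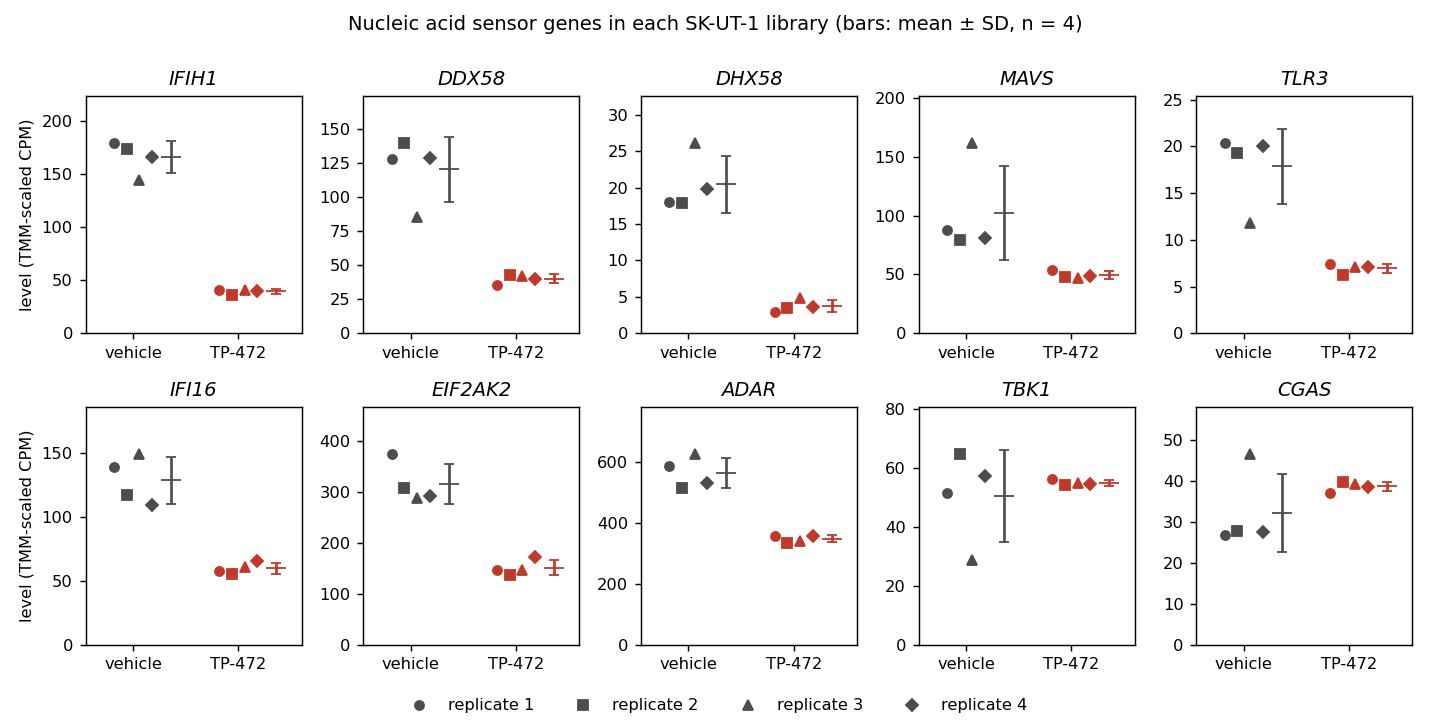
Level of each gene (vertical axis, TMM-scaled CPM from 0, a different scale in each panel) in the 4 vehicle (grey) and 4 TP-472 libraries (red), with marker shapes for replicates 1 to 4 and bars for the mean ± SD. The groups are separate in 8 panels and overlap for TBK1 and CGAS. Vehicle replicate 3 (triangle) is the vehicle library farthest from its group in most panels. Among these are MAVS (162 CPM), TLR3 (11.8 CPM), TBK1 (28.5 CPM), CGAS (46.6 CPM), IFIH1 (145 CPM), DDX58 (85.0 CPM) and DHX58 (26.1 CPM).

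The RNA receptors fell most. IFIH1, on the minus strand of chromosome 2 (162267079 to 162318703 on GRCh38), encodes MDA5, a helicase that assembles on long double-stranded RNA. Its level was 180, 174, 145 and 166 CPM in vehicle replicates 1 to 4 and 40.6, 36.5, 40.5 and 40.2 CPM in TP-472 replicates 1 to 4. The lowest vehicle library, replicate 3, was still more than 100 CPM above the highest TP-472 library. The mean fell from 166 ± 15.1 to 39.5 ± 1.98 CPM (SD, n = 4 each), which was 4.21-fold, with a log2 fold change of -2.07 (SE 0.106, adjusted p = 1.74e-05). In bulk RNA, fewer cells that express a gene and less of its RNA per cell cannot be told apart, here and below.

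DDX58 (minus strand of chromosome 9, 32455705 to 32526324) encodes RIG-I, which binds short double-stranded RNA with a 5′ triphosphate. It was measured at 128, 139, 85.0 and 128 CPM in vehicle and at 35.3, 42.4, 41.9 and 39.8 CPM in TP-472. Vehicle replicate 3 was again the lowest of its group, and the groups did not overlap. DDX58 fell 3.01-fold (120 ± 24.0 against 39.9 ± 3.23 CPM, log2 fold change -1.59, SE 0.161, adjusted p = 2.55e-04), and its log2 fold change was -1.73 without vehicle replicate 3.

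DHX58 (minus strand of chromosome 17, 42101404 to 42112733) encodes LGP2, a related helicase without the signalling domains of the other RIG-I-like receptors. It changed most of the 10, at 18.0, 17.8, 26.1 and 19.8 CPM in vehicle and 2.98, 3.52, 4.83 and 3.65 CPM in TP-472. Replicate 3 was the highest library in each group, and both groups stayed far apart. The fall was 5.46-fold (20.4 ± 3.89 against 3.74 ± 0.779 CPM, log2 fold change -2.45, SE 0.197, adjusted p = 8.83e-05), and 0.348% of all genes tested had a log2 fold change at or below that of DHX58. DHX58 also had the fewest counts of the 10 genes, with 115 in its lowest library.

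TLR3 (plus strand of chromosome 4, 186069152 to 186088069) encodes the Toll-like receptor that senses double-stranded RNA in endosomes. It was present at 20.3, 19.3, 11.8 and 19.98 CPM in vehicle and 7.40, 6.20, 7.05 and 7.11 CPM in TP-472. Vehicle replicate 3 lay well under its group, but above all TP-472 libraries. TLR3 fell 2.57-fold (17.8 ± 4.05 against 6.94 ± 0.516 CPM, log2 fold change -1.36, SE 0.186, adjusted p = 0.00102), and its log2 fold change was -1.52 without that library.

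MAVS (plus strand of chromosome 20, 3846799 to 3876123) is the adaptor shared by RIG-I and MDA5. Its values were 87.6, 79.5, 162 and 80.9 CPM in vehicle and 54.2, 47.7, 46.8 and 48.4 CPM in TP-472. Here vehicle replicate 3 was far above its group, while the other 3 vehicle libraries also stood above every TP-472 library. MAVS fell 2.08-fold (102 ± 39.7 against 49.2 ± 3.35 CPM, log2 fold change -1.06, SE 0.229, adjusted p = 0.00813). Without vehicle replicate 3 the log2 fold change was smaller, at -0.75 (adjusted p = 2.40e-05), and still called.

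The DNA sensors and TBK1 divided. IFI16 (plus strand of chromosome 1, 158999968 to 159055155) encodes a PYHIN protein that binds double-stranded DNA in the nucleus and cytosol. It stood at 139, 117, 149 and 109 CPM in vehicle and 57.7, 54.8, 60.4 and 65.1 CPM in TP-472, with no overlap. IFI16 fell 2.16-fold (128 ± 18.7 against 59.5 ± 4.39 CPM, log2 fold change -1.11, SE 0.126, adjusted p = 4.32e-04).

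CGAS (minus strand of chromosome 6, 73413515 to 73452276) encodes the enzyme that makes cyclic GMP-AMP on binding DNA. It was measured at 26.9, 27.8, 46.6 and 27.7 CPM in vehicle and 37.2, 39.8, 39.4 and 38.6 CPM in TP-472. In vehicle replicates 1, 2 and 4 it was below every TP-472 library, and in replicate 3 above them all. Over all libraries CGAS was not called (32.2 ± 9.56 against 38.7 ± 1.14 CPM, log2 fold change 0.27, SE 0.183, 95% confidence interval -0.15 to 0.68, adjusted p = 0.274). Without vehicle replicate 3 its log2 fold change was 0.49 with an adjusted p of 9.72e-05, and under limma-voom with quality weights it was 0.48 with an adjusted p of 2.77e-06. In both the adjusted p passed and the 1.5-fold limit was not reached, whereas a correction for GC content gave 0.09 (adjusted p = 0.771).

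TBK1 (plus strand of chromosome 12, 64451880 to 64502108) encodes the kinase on which both routes converge. Its values were 51.3, 64.6, 28.5 and 57.0 CPM in vehicle and 56.2, 54.1, 54.9 and 54.3 CPM in TP-472. The TP-472 libraries were nearly alike and lay inside the vehicle range, whose lowest value was replicate 3. No difference was detected (50.4 ± 15.5 against 54.9 ± 0.909 CPM, log2 fold change 0.12, SE 0.217, adjusted p = 0.671). The 95% confidence interval of the fold, 0.776 to 1.53, leaves room for a fall or for a rise as large as the 1.5-fold limit. The log2 fold change turned to -0.075 without vehicle replicate 3.

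EIF2AK2 and ADAR, whose products act directly on double-stranded RNA, both fell. EIF2AK2 (minus strand of chromosome 2, 37099210 to 37157065) encodes PKR, which phosphorylates the translation factor eIF2. It was present at 373, 308, 288 and 292 CPM in vehicle and 147, 137, 147 and 171 CPM in TP-472. Every vehicle library exceeded every TP-472 library by more than 100 CPM. EIF2AK2 fell 2.09-fold (315 ± 39.5 against 151 ± 14.6 CPM, log2 fold change -1.07, SE 0.124, adjusted p = 4.67e-04).

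ADAR (minus strand of chromosome 1, 154582057 to 154628013) encodes the adenosine deaminase ADAR1, which has a constitutive and an interferon-induced isoform. Counts summed by gene do not separate those isoforms. The gene stood at 585, 516, 625 and 529 CPM in vehicle and 357, 334, 341 and 357 CPM in TP-472, without overlap. ADAR fell 1.62-fold (564 ± 50.8 against 347 ± 11.5 CPM, log2 fold change -0.70, SE 0.104, adjusted p = 0.00148), the smallest of the 8 falls. In a test against a 1.5-fold change rather than no change, ADAR and MAVS no longer passed (adjusted p = 0.275 and 0.0935), and the other 6 did.

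**Figure D2:**
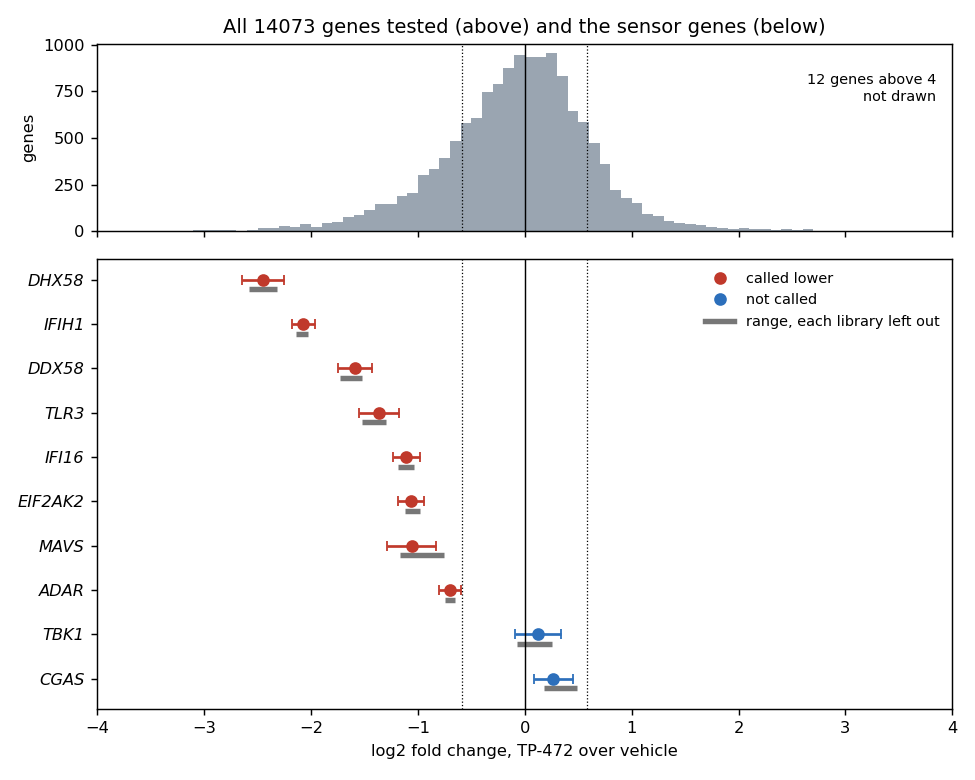
Log2 fold change, TP-472 over vehicle (horizontal axis), as a histogram over 14073 genes above and for each sensor gene below, with points and bars for the edgeR estimate ± SE, grey bars for the range when each library was left out in turn, and dotted lines at 1.5-fold; 12 genes above 4 are not drawn. Estimates run from -2.45 for DHX58 to 0.27 for CGAS, and the bar of TBK1 is the only one that crosses 0 when a library is left out.

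Reads from a partner on the opposite strand could add to 3 of the genes, since it could not be settled whether the counts use strand. EIF2AK2 shares 35 exon bases with GPATCH11 and 401 with a processed pseudogene, CGAS shares 180 with DDX43, and TBK1 shares 702 with the antisense gene AC135279.3. The pseudogene had 0 counts in all 8 libraries, and the other partners had at most 1064 (GPATCH11), 495 (DDX43) and 20 (AC135279.3) counts in a library, beside at least 4872 counts of EIF2AK2, 968 of CGAS and 986 of TBK1.

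To compare the genes with one another, levels were divided by the length of all exon bases of a gene. In vehicle, ADAR led with 58.2 ± 5.24 CPM per kilobase. It was followed by IFIH1 (32.5), EIF2AK2 (29.3), DDX58 (27.6) and IFI16 (24.2), and neighbours among these 4 were separated by less than the sum of their SDs. Lower down came TBK1 (10.6), MAVS (8.70), CGAS (7.76), DHX58 (5.32) and TLR3 (2.65 CPM per kilobase). Only the gaps between ADAR and IFIH1, between IFI16 and TBK1 and between DHX58 and TLR3 exceeded that spread. Without vehicle replicate 3, DDX58 and EIF2AK2 changed places (30.3 and 30.2 CPM per kilobase), and only their gap and that between MAVS and CGAS lay within the spread.

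In TP-472 the order was ADAR (35.8 ± 1.19 CPM per kilobase), EIF2AK2 (14.0), TBK1 (11.5), IFI16 (11.2), CGAS (9.33), DDX58 (9.16), IFIH1 (7.72), MAVS (4.18), TLR3 (1.03) and DHX58 (0.974). Neighbours within the spread were TBK1 and IFI16, CGAS and DDX58, and TLR3 and DHX58. IFIH1, which encodes MDA5, thus went from rank 2 in vehicle to rank 7 in TP-472, and TBK1 from rank 6 to rank 3 with a level that was not called different. When the length of the longest transcript was used instead, IFIH1 went from rank 2 to rank 6 and TBK1 from 6 to 2. DHX58 then stood above TLR3 in both groups, but in TP-472 their gap (1.43 and 1.15 CPM per kilobase) lay within the spread.

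**Figure D3:**
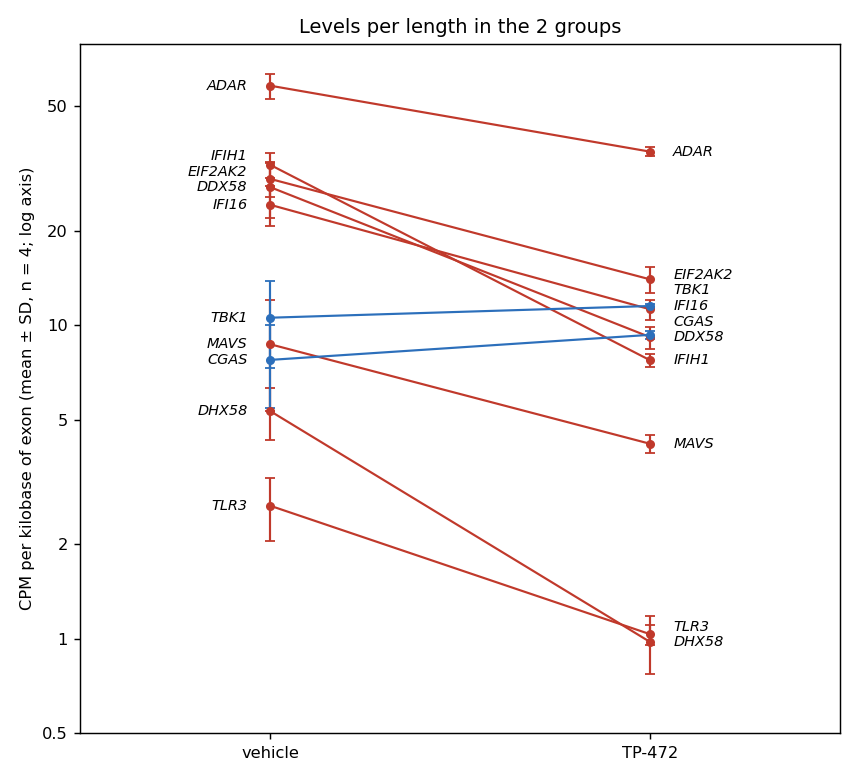
Mean level ± SD (n = 4) of each gene per kilobase of exon (vertical log axis, CPM per kilobase) in vehicle and TP-472, joined by lines that are red for genes called lower and blue for those not called. IFIH1 drops from 32.5 to 7.72 CPM per kilobase and crosses TBK1 and CGAS, which end at 11.5 and 9.33.

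The profiles over the 8 libraries were compared as log2 CPM centred on each gene's mean, by the root mean square (RMS) difference. Among the 10 genes, IFI16 and EIF2AK2 were the closest pair (0.145), followed by DDX58 and TLR3 (0.190). Among 11068 other genes whose mean reached 5 CPM, the nearest to IFIH1 was PARP9 (0.101), an ADP-ribosyltransferase. DDX58 was nearest to SSBP2 (0.0936), DHX58 to the transcription factor gene DBP (0.192), and TLR3 to the growth factor gene BMP5 (0.0805). MAVS was nearest to the kinase gene MAP3K6 (0.0468), IFI16 to EPB41 (0.0447), EIF2AK2 to the utrophin gene UTRN (0.0643) and ADAR to GALNT10 (0.0385). TBK1 and CGAS were nearest to SPDL1 (0.0362) and to the pseudogene NSUN5P2 (0.0342). Because 8 libraries in 2 groups leave few degrees of freedom, such likeness describes these libraries and says nothing of function.

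The genes around the sensors were taken from 7 lists of 90 genes in all, of which 75 passed the filter. Of these, 16 were called lower (21.3%, beside 14.9% of all genes tested), 3 higher (beside 12.0%) and 56 neither, with a median log2 fold change of -0.23. Because the lists were written with earlier results of these data known, these shares describe the lists and are no test. The genes called lower included 4 OAS-family genes and 4 induced targets (IFIT1, IFIT2, IFIT3 and ISG15), and each other list had 1 to 3. Without vehicle replicate 3 the counts were 14 lower and 5 higher, with a median of -0.08, where 13.1% of all genes were lower and 12.0% higher.

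Cofactors and inhibitors of the RIG-I-like receptors numbered 12, all tested, with 2 called lower and 0 higher and a median of -0.21. The helicase gene DDX60 was measured at 92.9, 106, 54.0 and 91.7 CPM in vehicle and 18.7, 17.6, 21.1 and 19.5 CPM in TP-472. The groups were far apart (log2 fold change -2.16, adjusted p = 1.78e-04). NLRX1, a mitochondrial protein that restrains MAVS, went from 19.3 ± 3.90 to 11.1 ± 0.851 CPM (log2 fold change -0.80, adjusted p = 0.00510), and its estimate was -0.41, under the fold limit, after a correction for GC content. TRIM25, a ubiquitin ligase that acts on RIG-I, was not called (-0.38, adjusted p = 0.0563) and is named, like other genes that were not called, after its values were seen.

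The list for cytosolic DNA sensing and DNA clearance held 19 genes, 15 of them tested, with 3 called lower, 2 higher and a median of -0.26. STING1, which encodes the receptor for the product of cGAS, was low throughout, at 5.40, 4.40, 10.0 and 6.15 CPM in vehicle and 1.37, 1.52, 1.72 and 1.16 CPM in TP-472. Its groups did not overlap, and it fell by 2.17 on the log2 scale (SE 0.277, adjusted p = 7.57e-04). The DNA exonuclease gene TREX1 fell by 0.63 (adjusted p = 0.0298) and TRIM56, a ubiquitin ligase of this route, by 0.91 (adjusted p = 0.0380). The call of TRIM56 was lost under limma-voom (log2 fold change -0.81, adjusted p = 0.0523) and with quality weights (-0.44, under the fold limit). It was also lost with a replicate block (-0.80, adjusted p = 0.0919) and in the test against a 1.5-fold change (adjusted p = 0.296). In 6 of the 8 fits that left out a library it was lost too, with a log2 fold change of -0.53 without vehicle replicate 3. Without that library the list had 2 genes called lower, STING1 and the nuclease gene MRE11 (-0.63), and TREX1 was not called. TREX1 and MRE11 are named after their values were seen. Higher were ENPP1, which hydrolyses extracellular cyclic GMP-AMP (1.05 ± 0.335 to 2.66 ± 0.155 CPM, log2 fold change 1.33, adjusted p = 0.00333), and PQBP1, a cofactor of cGAS (22.1 ± 4.95 to 38.9 ± 4.39 CPM, log2 fold change 0.81, adjusted p = 0.00760). Of the other sensor genes, MNDA, PYHIN1 and ZBP1 were at or near 0, and AIM2 stayed under the filter.

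Downstream of MAVS and TBK1, 1 of 18 genes was called lower and 0 higher, with a median of -0.17. Without vehicle replicate 3 the median was -0.04, and FADD, an adaptor in death receptor signalling, was called higher (0.65, adjusted p = 3.74e-04). The gene called was IRF7, the interferon regulatory factor that is itself induced by interferon. It stood at 18.4, 21.6, 36.0 and 21.1 CPM in vehicle and 8.10, 10.1, 8.07 and 7.87 CPM in TP-472, and fell 2.84-fold (adjusted p = 0.00136). IRF3, the factor that TBK1 phosphorylates, had a log2 fold change of -0.53 (adjusted p = 0.0690). Vehicle replicate 3, at 70.9 CPM, widened that difference. The other vehicle libraries had 39.4 to 42.3 CPM of IRF3 and the TP-472 libraries 27.1 to 37.8 CPM. TRAF6 reached an adjusted p of 0.0129 at a log2 fold change of 0.50, under the fold limit. IKBKB (-0.45), OPTN (-0.49) and FADD (0.49) also passed the adjusted p but not the fold limit, in both directions.

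In the endosomal Toll-like receptor list, 5 of 8 genes were tested and 1, UNC93B1, which escorts these receptors to endosomes, was called lower (-0.86, adjusted p = 0.0193), a call that was lost at -0.36 after the GC correction and at -0.53 with quality weights. The median was -0.77, but -0.03 without vehicle replicate 3, where no gene of the list was called and UNC93B1 had a log2 fold change of -0.57. TICAM1, the adaptor of TLR3, was at 6.26, 5.17, 24.8 and 4.75 CPM in vehicle and 5.25, 4.85, 4.22 and 6.87 CPM in TP-472. Its single high library set its estimate, which was not called (-0.95, adjusted p = 0.179). The receptor genes of the list, TLR7, TLR8 and TLR9, stayed under the filter, so none of them was tested.

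Among 12 other proteins that bind or degrade double-stranded RNA, 4 were called lower and 0 higher, and the median was -0.26, or -0.15 without vehicle replicate 3 with the same counts. The 4 were OAS1, OAS2 and OAS3, which encode oligoadenylate synthetases activated by double-stranded RNA, and OASL, a relative without synthetase activity. OAS1 was measured at 62.0, 70.8, 58.7 and 66.3 CPM in vehicle and 13.7, 14.0, 15.6 and 12.5 CPM in TP-472. The log2 fold changes were -2.23 for OAS2, -2.20 for OAS1, -2.12 for OASL and -1.95 for OAS3, with adjusted p-values from 1.74e-05 to 3.00e-04, and none of the 4 had overlapping groups. The editing enzyme gene ADARB1 (log2 fold change -0.23, adjusted p = 0.463) and DICER1 (0.07, adjusted p = 0.781) were not called. Vehicle replicate 3 stood apart for both. ADARB1 was at 28.7 CPM there, 13.8 to 19.6 CPM in the other vehicle libraries and 14.2 to 17.9 CPM in TP-472. DICER1 was at 85.0 CPM there, 134 to 138 CPM in the other vehicle libraries and 118 to 154 CPM in TP-472.

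Around PKR, 9 genes of the eIF2 kinases and the stress response were tested, with 1 lower, 1 higher and a median of 0.14. Without vehicle replicate 3, 2 were higher, EIF2S1 (0.66) and DDIT3 (0.72), and the median was 0.16. EIF2AK1, the heme-regulated kinase, fell by 0.61 on the log2 scale (adjusted p = 0.00231), close to the fold limit, which it missed at -0.57 both without vehicle replicate 1 and without TP-472 replicate 2. EIF2S1, the eIF2 subunit that PKR phosphorylates, rose from 146 ± 46.1 to 266 ± 14.1 CPM (log2 fold change 0.87, adjusted p = 0.0180), and its adjusted p was 0.0510 without TP-472 replicate 2 and 0.0521 without TP-472 replicate 3. The other kinases EIF2AK3 (0.14, adjusted p = 0.490) and EIF2AK4 (-0.27, adjusted p = 0.0339) were not called. ATF4, DDIT3 and DNAJC3 passed the adjusted p (0.0313, 0.0241 and 0.0221) with log2 fold changes of 0.45, 0.56 and 0.54, under the fold limit.

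The last list held 12 interferons, chemokines and first target genes, and 4 of them passed the filter. All 4 were called lower, with a median of -1.75. IFIT1, whose product binds RNA without a proper cap, was at 231, 307, 148 and 275 CPM in vehicle and 55.9, 60.7, 66.2 and 48.4 CPM in TP-472 (log2 fold change -2.06, adjusted p = 3.31e-04). IFIT3, ISG15 and IFIT2 fell by 1.77, 1.73 and 1.48 on the log2 scale, and the groups of these 4 genes did not overlap. The interferons themselves were barely detected. IFNB1 and IFNL1 had at most 5 counts in any library, IFNL2 and IFNL3, which are near-identical copies, at most 3, and IFNA1 had 0 in all 8. CXCL10, CXCL11 and CCL5 reached at most 14, 27 and 72 counts, so a difference in these genes was not tested. Summed over the libraries of a group, CXCL10 had 43 counts in vehicle and 40 in TP-472, CXCL11 16 and 72, and CCL5 215 and 117.

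**Figure D4:**
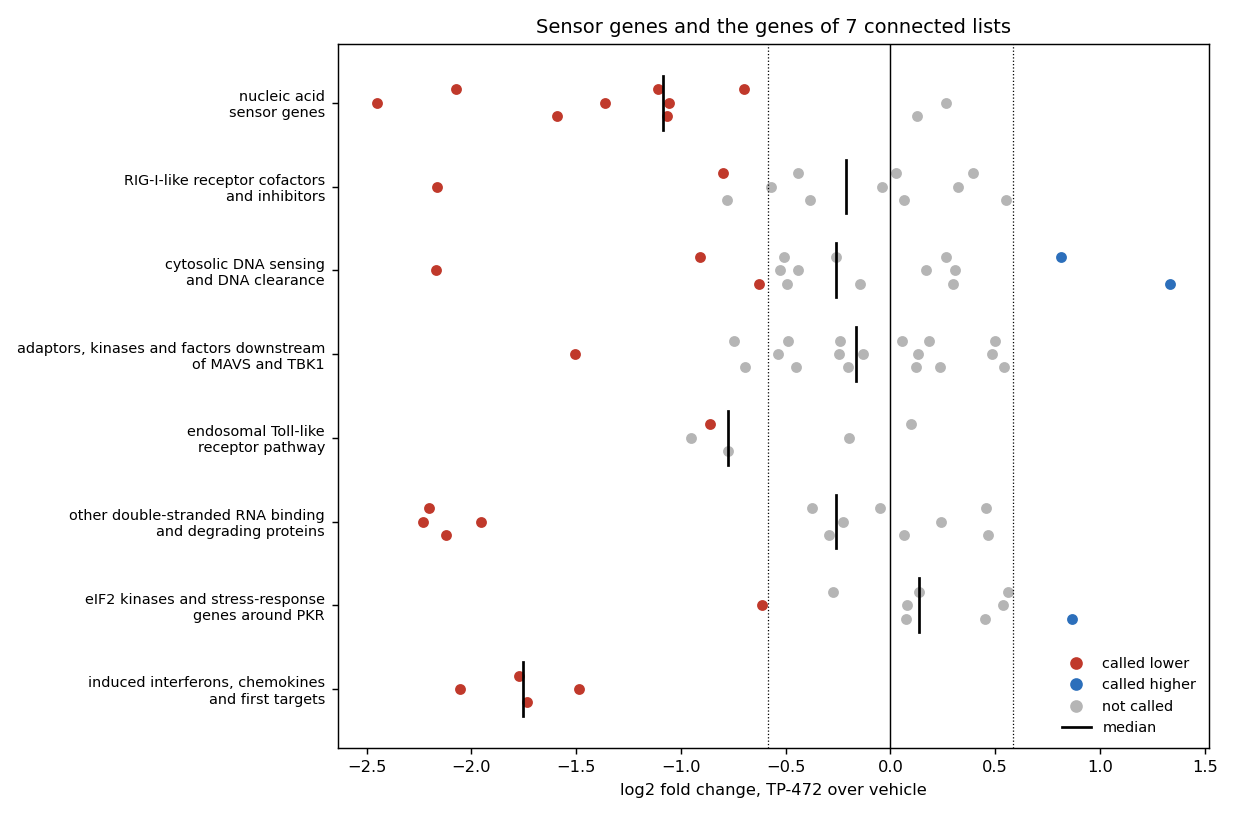
Log2 fold change, TP-472 over vehicle (horizontal axis), of the 10 sensor genes and of the tested genes of the 7 lists, with 1 point for each gene (red, called lower; blue, called higher; grey, not called), a black bar for the median and dotted lines at 1.5-fold. The medians are -1.09 for the sensor genes, -1.75 for the induced targets and -0.77 for the endosomal list, and lie between -0.26 and 0.14 for the other 5.

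The targets of the compound were examined as a check on the labels, although a bromodomain inhibitor need not change the RNA of its target. BRD9 was at 72.1, 66.1, 114.5 and 67.8 CPM in vehicle and 70.7, 70.3, 68.9 and 76.1 CPM in TP-472, and no difference was detected (log2 fold change -0.16, SE 0.179, adjusted p = 0.486). Only vehicle replicate 3 lay above all TP-472 libraries, so the negative sign rested on that library. BRD7 went from 56.2 ± 0.583 to 60.8 ± 2.65 CPM (log2 fold change 0.11, SE 0.0856, adjusted p = 0.324).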

How the data were processed

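RNA of 8 SK-UT-1 libraries was quantified. The authors aligned reads with STAR 2.6.1d and estimated transcripts with salmon (1.4.0 and GRCh38 in the submitters' processing notes). They summed transcripts by gene with tximport and GENCODE 34. The deposited values are these estimated counts, neither normalized nor filtered. The methods give a strand-specific protocol and the labels name only a TruSeq RNA kit. Whether the counts use strand is uncertain.

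Counts were rounded, a gene was kept if it exceeded 1 CPM in 4 or more of the 8 libraries (14073 genes), and libraries were scaled by TMM (factors 0.944 to 1.06). Groups were compared in edgeR 4.0.16 (R 4.3.3) by quasi-likelihood without further terms, which gives all fold changes, SEs and adjusted p-values. The methods speak of biological replicates for the paper's experiments in general and not of separate cultures for these libraries, so p-values measure the spread between these libraries, which may in part be technical. Library totals were 34433596, 36634184, 32574716 and 36407850 counts in vehicle and 38545695, 37674588, 37427131 and 36246466 in TP-472. No pair of libraries was a copy (lowest mean chi-square 11.3). The calculations were tested on simulated data.

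The members, the gene lists and the rule for named genes were chosen with earlier results of these data known. Named are the 10 members, up to 4 called genes with no overlap per list, the nearest genes by profile (mean of at least 5 CPM, prior count 2), BRD9, BRD7 and cell markers. List counts and medians also cover genes whose own values are not reported here. Coordinates are those of GENCODE 29 on GRCh38. Promoters are those of RefSeq. Alternatives were DESeq2 1.42.0, limma-voom (limma 3.58.1) with and without quality weights, other scalings, filters and thresholds, a replicate block, a GC-content correction (GC known for 99.3% of genes) and each library left out. The order of levels by longest transcript, that order and the list counts without vehicle replicate 3, and the counts at 2-fold under the alternatives were added after seeing the data.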

Additional observations from a re-analysis of the deposited data

Results flagged for a closer look

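A level was picked out when the highest or lowest library of a group stood far from the nearest of the other 3, by Dixon's criterion for 4 values. This was examined for 30 genes, which gave 60 groups of 4 libraries, and 9 were picked out, where chance alone picks about 1 in 20 groups. In 7 of the 9 the library was vehicle replicate 3, and the cause was not tested.

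Among the sensor genes, MAVS in vehicle replicate 3 was at 161.7 CPM, where the nearest other vehicle library had 87.6 CPM. TLR3 was at 11.81 CPM in that library, where the nearest had 19.3 CPM, and CGAS was at 46.55 CPM, where the nearest had 27.8 CPM. IFIH1 was at 36.5 CPM in TP-472 replicate 2, where the other 3 TP-472 libraries lay between 40.2 and 40.6 CPM, so that this gap was small beside the difference between groups.

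Among the other genes, vehicle replicate 3 was highest for NLRX1 (25.07 CPM), UNC93B1 (20.44 CPM), ISG15 (418.9 CPM) and BRD9 (114.5 CPM). IRF7 was at 10.15 CPM in TP-472 replicate 2, where the nearest TP-472 library had 8.10 CPM. Genes of the set did not all move the same way in vehicle replicate 3. Against the mean of the other 3 vehicle libraries, its log2 ratio was 0.95 for MAVS, 0.72 for CGAS and 0.45 for DHX58, but -0.96 for TBK1, -0.66 for TLR3 and -0.62 for DDX58.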

How the results depend on the processing

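The count of 8 sensor genes called lower and 0 higher was the same under every alternative run except the test against a 1.5-fold change, which called 6. TBK1, which was never called, turned to a log2 fold change of -0.10 under limma-voom with quality weights and to -0.075 without vehicle replicate 3, and reached 0.26 without vehicle replicate 2. Over all genes, the test against 1.5-fold called 1123 (594 lower, 529 higher), and DESeq2 called 2678 higher among 33192 genes tested. Leaving out 1 library gave 2486 to 4110 genes called, 1321 to 2325 lower and 1165 to 1785 higher. Of the genes in the 7 lists, 19 were called in all (14 to 24 with 1 library left out, 12 in the test against 1.5-fold, 34 with no fold limit). Called lower were 16 (12 to 20 with 1 library left out, 25 with no fold limit) and called higher 3 (2 to 5 with 1 library left out). The higher count was 5 under DESeq2, quality weights, no filter, the GC correction and without vehicle replicate 3, 9 with no fold limit and 1 against 1.5-fold. UNC93B1 lost its call in 5 and TRIM56 in 6 of 8 fits without a library, and EIF2AK1 and EIF2S1 in 2 each. The replicate block called 3055 genes, 8 sensor genes and 17 of the lists. Deviations from the group means showed no match by replicate number (correlations -0.06, 0.12, -0.17 and -0.18, and no vehicle library matched its own number best). With 4 libraries per group and vehicle replicate 3 apart from the rest, this check cannot settle whether the libraries were paired. The labels do not say. Genes under the filter on low counts, among them the interferons, were not tested in the fit reported.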
